A study of Danio rerio with 6 samples.

Results

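The most abundant transcripts of the zebrafish embryonic heart were examined in tnnt2a morphant and wild-type hearts. They were chosen by their FPKM (fragment counts divided by transcript length and by library size), as every feature whose larger group value was 1000 FPKM or more, which gave 129 of the 16383 features in the authors' deposited table. Because these same FPKM values chose them, their levels and the differences between the groups are given as a description, and no test of them as a set was made. The tnnt2a morphant group held 3 libraries of hearts from embryos injected at the 1-cell stage with 1 ng of a tnnt2a morpholino, and the wild-type group held 3 libraries of hearts from embryos for which the labels give no injection. All hearts were taken at 54 hours post fertilisation (hpf), and each library was made from total RNA of a pool of about 100 hearts. The table holds 1 FPKM value per feature and group, which was taken as the authors' merge of the 3 replicates. Every level below is thus a merged value without a spread of its own. The conditions are named sih, an abbreviation of silent heart, and control in that table, and were read as tnnt2a morphant and wild type, the only groups of the series.

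The tnnt2a gene encodes cardiac troponin T, which anchors the troponin complex to tropomyosin on the thin filament of heart muscle. Zebrafish silent heart mutants, which lack it, have hearts that do not beat and no blood flow, and the embryos live on through early development because oxygen reaches them by diffusion. Messenger RNA abundance is strongly skewed in most tissues, so that a small number of genes supply a large part of the total. In heart muscle these usually include proteins of the sarcomere, of mitochondrial energy supply and of the ribosome, and globins where blood cells are present. The features in this table carry assembly identifiers and coordinates on the GRCz10 build without gene names, so none could be assigned to these classes and the cardiac origin of the tissue was not checked against marker genes. The level of tnnt2a itself is not analysed here.

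The knockdown agent is shown because it defines the compared groups. A morpholino is a synthetic antisense oligomer, and this one is known as a blocker of translation, which acts on protein synthesis and need not lower the level of the targeted messenger RNA. Capitals mark the letters CAT, the reverse complement of an ATG start triplet, at positions 1 to 3 counted from the 5′ end of the 25 bases.
tnnt2a morpholino: CATgtttgctctgatctgacacgca
No control oligomer is named for the wild-type hearts, so effects of injection and of tnnt2a knockdown cannot be told apart.

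A small number of the listed features held most of the listed FPKM sum in both groups, and to a like extent. Tested features with p-values above 0.767 are not listed, and abundant ones may be among them. Shares and ranks could thus differ over all tested features. The 129 features summed to 413682 FPKM in morphant hearts, which is 52.6% of the 786948 FPKM over all listed features. In wild-type hearts they summed to 390616 FPKM, 51.4% of 760448 FPKM. Across the listed features 105 were needed to reach 50% of the sum in morphant hearts and 112 in wild-type hearts, while 809 and 827 were needed to reach 75%. The 10 highest features of each group supplied 25.0% of the morphant and 26.1% of the wild-type sum, and the 100 highest supplied 49.4% and 48.5%. FPKM values are relative to each library's fragments, and in pooled hearts a smaller number of cells of a type and less RNA per cell cannot be told apart.

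**Figure D1:**
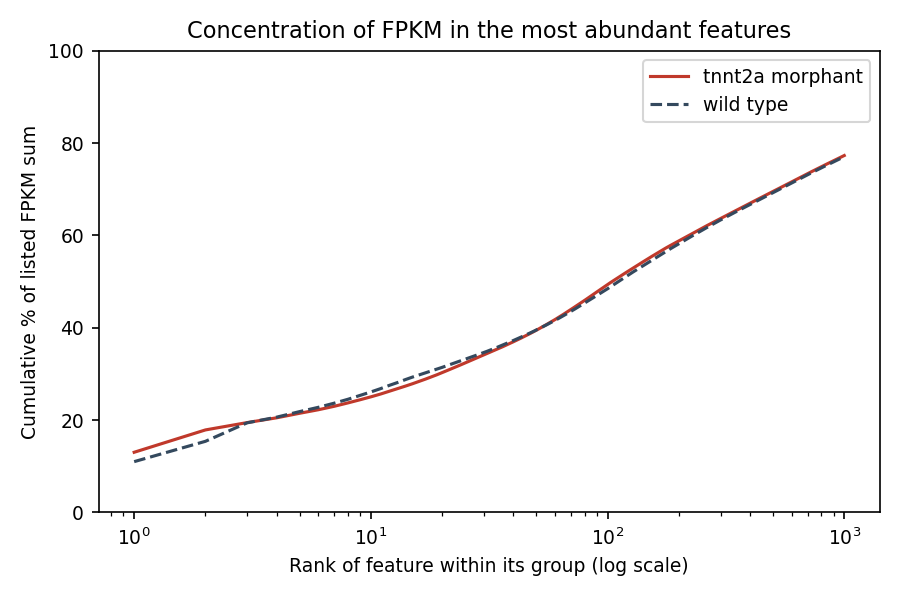
Cumulative percentage of the listed FPKM sum (vertical axis) against the rank of the feature within its group (horizontal axis, log scale), for tnnt2a morphant (solid) and wild-type (dashed) hearts. The first feature supplies 13.0% of the morphant and 11.0% of the wild-type sum, and the curves pass 50% at 105 and 112 features.

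Among the listed features, the same pair of very short ones led both groups. XLOC_019566, a 298-bp locus on chromosome 3 (GRCz10, 30117896 to 30118194), stood at 102561 FPKM in morphant and 83651 FPKM in wild-type hearts, which is 13.0% and 11.0% of the listed sums. XLOC_004838, a 322-bp locus on chromosome 13 (695612 to 695934), had rank 2 in both, at 38069 FPKM in morphant and 33499 FPKM in wild-type hearts. Neither difference passed the authors' test (q = 0.730 and q = 0.802 in the authors' deposited table, where q is the p-value adjusted by Benjamini-Hochberg over 19969 tested features). FPKM divides by transcript length, so the high ranks of such short features depend on that scaling.

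The next places were held in part by the same features and in part by others. XLOC_020523 on chromosome 3 (40384248 to 40387946) had rank 6 in morphant hearts, at 6024 FPKM, and rank 3 in wild-type hearts, at 30465 FPKM. This 5.06-fold lower level was the largest difference in FPKM of all members, although it missed the limit (q = 0.415 in the authors' deposited table). XLOC_000751 on chromosome 1 (7964987 to 7968621) had rank 3 in morphant hearts, at 12497 FPKM, and rank 7 in wild-type hearts, at 6835 FPKM (q = 0.874 in the authors' deposited table). Both features thus had large differences in level beside q-values far from the limit of 0.05.

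Several of the leading features kept their place or moved by few places. XLOC_029119 on chromosome 8 (40417521 to 40425350) had rank 4 in both groups, at 8188 FPKM in morphant and 9334 FPKM in wild-type hearts. XLOC_009713 on chromosome 18 (16726797 to 16737142) had rank 5 in both, at 7713 FPKM in morphant and 9146 FPKM in wild-type hearts. The differences of these features were 1.14-fold and 1.19-fold, both lower in morphants, with q = 0.827 and q = 0.849 in the authors' deposited table. XLOC_025239 on chromosome 5 (63486420 to 63487216) had rank 9 in morphant hearts at 5346 FPKM and rank 10 in wild-type hearts at 5798 FPKM. XLOC_023724 on chromosome 5 (3999158 to 4041339) had rank 10 in morphant hearts at 4989 FPKM and rank 9 in wild-type hearts at 6282 FPKM. XLOC_029764 on chromosome 9 (54612561 to 54614146) had rank 7 in morphant hearts at 5871 FPKM and rank 11 in wild-type hearts at 5513 FPKM. In all, 8 of the 10 highest features were shared between the groups, which is 80% of each list. XLOC_002495 and XLOC_029764 were among the 10 highest in morphant hearts alone, and XLOC_024804 and XLOC_024383 in wild-type hearts alone.

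By the authors' q-value below 0.05, 3 of the 129 features rose and 4 fell in morphant hearts. These are 2.33% and 3.1% of the members, near the 3.33% and 2.91% of all listed features called higher and lower, so the number of calls is no result about the abundant features. Taking the p-values of the authors' deposited table without adjustment, 9 members were higher and 11 lower below 0.05, or 6.98% and 8.53%, against 9.8% and 8.03% of all listed features. Unlisted tested features have p-values above 0.767 and none was called, so the shares called over all tested features are lower than those over listed features.

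The called rises differed widely in their wild-type level. XLOC_028845 on chromosome 8 (16573953 to 16577781) had 4808 FPKM in morphant hearts, against 232 FPKM in wild-type hearts, a 20.7-fold rise that placed it at rank 12 in morphant and rank 384 in wild-type hearts (q = 0.00173 in the authors' deposited table). XLOC_008783 on chromosome 17 (24596689 to 24599878) had 4046 FPKM in morphant and 1521 FPKM in wild-type hearts, at ranks 15 and 61 (2.66-fold, q = 0.00173 in the authors' deposited table). XLOC_012098, a 303-bp locus on chromosome 2 (37844278 to 37844581), had 1455 FPKM in morphant and 537 FPKM in wild-type hearts, at ranks 83 and 189 (2.71-fold, q = 0.00173 in the authors' deposited table). Of these 3 features, XLOC_008783 alone was at 1000 FPKM or more in both groups, and the other two passed the threshold through their morphant level.

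The 4 called falls ranged from 1.78-fold to 3.48-fold. XLOC_024804 on chromosome 5 (32683990 to 32694594) had 2028 FPKM in morphant and 7058 FPKM in wild-type hearts, at ranks 42 and 6 (3.48-fold lower, q = 0.00173 in the authors' deposited table). XLOC_012597 on chromosome 2 (24618672 to 24633992) had 1249 FPKM in morphant and 2468 FPKM in wild-type hearts, 1.98-fold lower (q = 0.0278 in the authors' deposited table). XLOC_000171, a 216-bp locus on chromosome 1 (15765587 to 15765803), had 1453 FPKM in morphant and 2581 FPKM in wild-type hearts, 1.78-fold lower (q = 0.0124 in the authors' deposited table). XLOC_024383 on chromosome 5 (68410885 to 68411904), at rank 8 in wild-type hearts, missed the limit. It had 3612 FPKM in morphant and 6397 FPKM in wild-type hearts (1.77-fold lower, q = 0.0964 in the authors' deposited table).

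The remaining called fall lay beside other features that were lower in morphants. XLOC_019839 on chromosome 3 (54859450 to 54884525) had 483 FPKM in morphant and 1077 FPKM in wild-type hearts (2.23-fold lower, q = 0.00173 in the authors' deposited table). XLOC_020640, listed at the same coordinates, had 151 FPKM in morphant and 322 FPKM in wild-type hearts, 2.14-fold lower, but missed the limit (q = 0.232 in the authors' deposited table). XLOC_020641 began 7459 bp further on (54891984 to 54893256) and was just under the threshold for membership. It had 411 FPKM in morphant and 993 FPKM in wild-type hearts, 2.42-fold lower (q = 0.00173 in the authors' deposited table). The 3 listed features of this stretch thus all had lower levels in morphant hearts, by 2.14-fold to 2.42-fold. The stretch was drawn around the called fall after values were seen, so their like direction is a description only. XLOC_019839 passed the threshold for membership through its wild-type level alone.

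**Figure D2:**
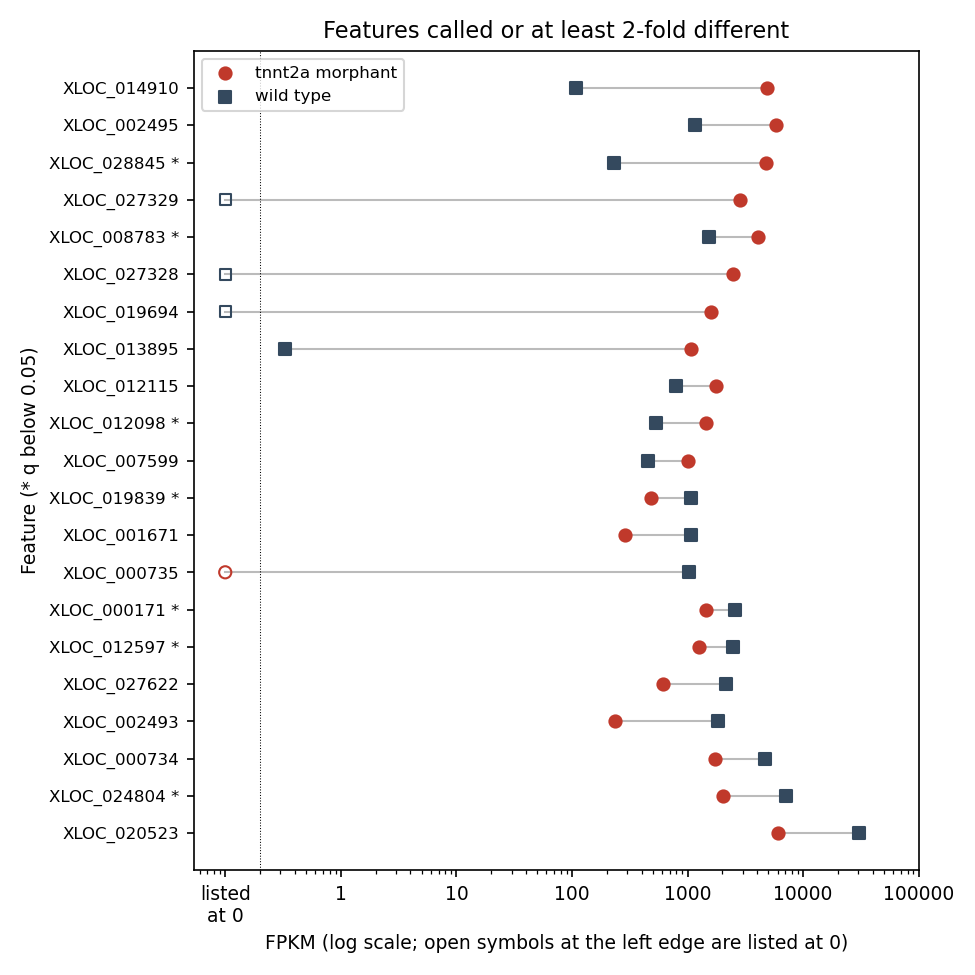
FPKM (horizontal axis, log scale) of the members that were called at q below 0.05 (asterisk), at least 2-fold different or listed at 0 in a group, with tnnt2a morphant values as circles and wild-type values as squares, ordered by the difference in FPKM. XLOC_014910 stands at 4844 FPKM in morphant and 108 FPKM in wild-type hearts at the top, and XLOC_020523 at 6024 and 30465 FPKM at the bottom, and neither was called.

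Among the 125 members above 0 in both groups, 8 were at least 2-fold higher in morphants and 7 at least 2-fold lower, which is 6.4% and 5.6%. Over the 14078 listed features above 0 in both groups and reaching at least 1 FPKM in either, 12.4% were at least 2-fold higher and 7.97% at least 2-fold lower. Tested features with p-values above 0.767 are not listed, so these shares could be lower over all tested features. Of the 817 such features with 100 to 1000 FPKM in the higher group, 62 were at least 2-fold higher and 32 at least 2-fold lower. Together these were 11.5% of that band, near the 12% of the members, so the members' smaller shares were not particular to them. The choice by the higher group value shapes the members' shares. Of the 8, 6 reached 1000 FPKM in morphant hearts alone, and of the 7, 4 did so in wild-type hearts alone. Among the 96 members at 1000 FPKM or more in both groups, 2 were at least 2-fold higher and 3 at least 2-fold lower. Together with 4 members listed at 0 in a group, 19 members differed at least 2-fold or were listed at 0, and 5 of these were called, each with the smallest p-value of the authors' deposited table (5e-05). That is 26.3% of such members, against 654 called of 3253 such features (20.1%) among all listed features of at least 1 FPKM in the higher group, so the share of large differences that were called is no result about the members. The other 14, of which 8 were higher and 6 lower in morphants, had q-values from 0.297 to 0.839 in the authors' deposited table. Of the 14 uncalled members, 9 shared their coordinates with another listed feature and 5 were listed alone at theirs. The same share was not counted among the uncalled large differences of all listed features, so these counts are no result about the members. Without values per library the spread between replicates behind these q-values is unknown.

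The 5 uncalled members listed alone at their coordinates included XLOC_020523, described above. XLOC_012115 on chromosome 2 (38390943 to 38410247) had 1764 FPKM in morphant and 795 FPKM in wild-type hearts (2.22-fold higher, q = 0.839 in the authors' deposited table). XLOC_013895 on chromosome 20 (19643678 to 19645969) had 1070 FPKM in morphant and 0.327 FPKM in wild-type hearts, the largest ratio of any member, with a log2 fold change of 11.67 (q = 0.740 in the authors' deposited table). XLOC_000734 and XLOC_000735 are a pair of 88-bp loci on chromosome 1 (7235368 to 7235456 and 7236007 to 7236095), 551 bp apart. XLOC_000734 had 1728 FPKM in morphant and 4688 FPKM in wild-type hearts (2.71-fold lower, q = 0.517), and XLOC_000735 was listed at 0 in morphant hearts beside 1038 FPKM in wild-type hearts (q = 0.487, both in the authors' deposited table). Both of these very short neighbours were lower in morphants, and neither passed. With q-values far from the limit and XLOC_000735 listed at 0 in morphant hearts, little weight can be put on their like direction.

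At some loci, features listed at the same coordinates had unlike differences between the groups. Whether such features draw on the same fragments is unknown. Their transcript lengths are not given, so sums of their FPKM values are descriptive and not levels of a locus. Of the 129 members, 33 (25.6%) shared their coordinates with another listed feature. That share was 16.7% for features of 100 to 1000 FPKM and 14.5% for all listed features. These 33 members lay on 28 loci that held 75 listed features, 42 of which were below 1000 FPKM, and 4 of the loci held more than 1 member. On chromosome 11 (7139664 to 7141407), XLOC_002495 had 5781 FPKM in morphant and 1150 FPKM in wild-type hearts, while XLOC_002493 had 238 FPKM in morphant and 1830 FPKM in wild-type hearts. Summed over the 4 listed features of that locus, the values came to 6930 FPKM in morphant and 3633 FPKM in wild-type hearts, 1.91-fold higher. The features of this locus had opposite differences of 5.03-fold higher and 7.70-fold lower, and neither passed (q = 0.831 and q = 0.792 in the authors' deposited table).

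On chromosome 10 (29963105 to 29967488) the more abundant member differed less between the groups than the other. XLOC_001669 had 4580 FPKM in morphant and 5504 FPKM in wild-type hearts, and XLOC_001671 had 290 FPKM in morphant and 1064 FPKM in wild-type hearts (q = 0.819 and q = 0.831 in the authors' deposited table). The 3 listed features of the locus summed to 4870 FPKM in morphant and 6655 FPKM in wild-type hearts, 1.37-fold lower. The 3.67-fold difference of XLOC_001671 was thus larger than that of the summed values.

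Other shared loci differed between the groups in sum as well. On chromosome 21 (5000477 to 5041088), XLOC_014910 had 4844 FPKM in morphant and 108 FPKM in wild-type hearts, 45.0-fold higher, beside XLOC_014909 with 1359 FPKM in morphant and 1016 FPKM in wild-type hearts (q = 0.814 and q = 0.229 in the authors' deposited table). The locus summed to 6205 FPKM in morphant and 1124 FPKM in wild-type hearts, 5.52-fold higher. On chromosome 7 (67244349 to 67253785), 3 members shared a locus. XLOC_027327 had 1769 FPKM in morphant and 1357 FPKM in wild-type hearts, whereas XLOC_027328 and XLOC_027329 had 2463 and 2833 FPKM in morphant hearts and were both listed at 0 in wild-type hearts (q = 0.533 and q = 0.534 in the authors' deposited table). The sum of that locus was 7066 FPKM in morphant and 1357 FPKM in wild-type hearts. Because a value of 0 in this table has no depth behind it, it is reported only as listed at 0.

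At the locus on chromosome 3 from 37645370 to 37647386 a different feature was above 0 in each group. XLOC_019694 had 1588 FPKM in morphant hearts and was listed at 0 in wild-type hearts, while XLOC_019697 was listed at 0 in morphant hearts and had 508 FPKM in wild-type hearts (q = 0.533 and q = 0.557 in the authors' deposited table). The sum of this locus was 3.13-fold higher in morphant hearts. XLOC_027622 on chromosome 7 (21519256 to 21572102) had 613 FPKM in morphant and 2147 FPKM in wild-type hearts, 3.50-fold lower, and its locus sum was 3.26-fold lower (q = 0.375 for the feature in the authors' deposited table). XLOC_007599 on chromosome 16 (27253028 to 27507723) had 1001 FPKM in morphant and 456 FPKM in wild-type hearts, 2.19-fold higher, and its locus sum was 2.06-fold higher (q = 0.297 for the feature in the authors' deposited table). Over the 28 shared loci, 17 sums were higher and 11 lower in morphant hearts, and 6 differed at least 2-fold. Features of these loci that the table does not list could not be added to the sums.

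**Figure D3:**
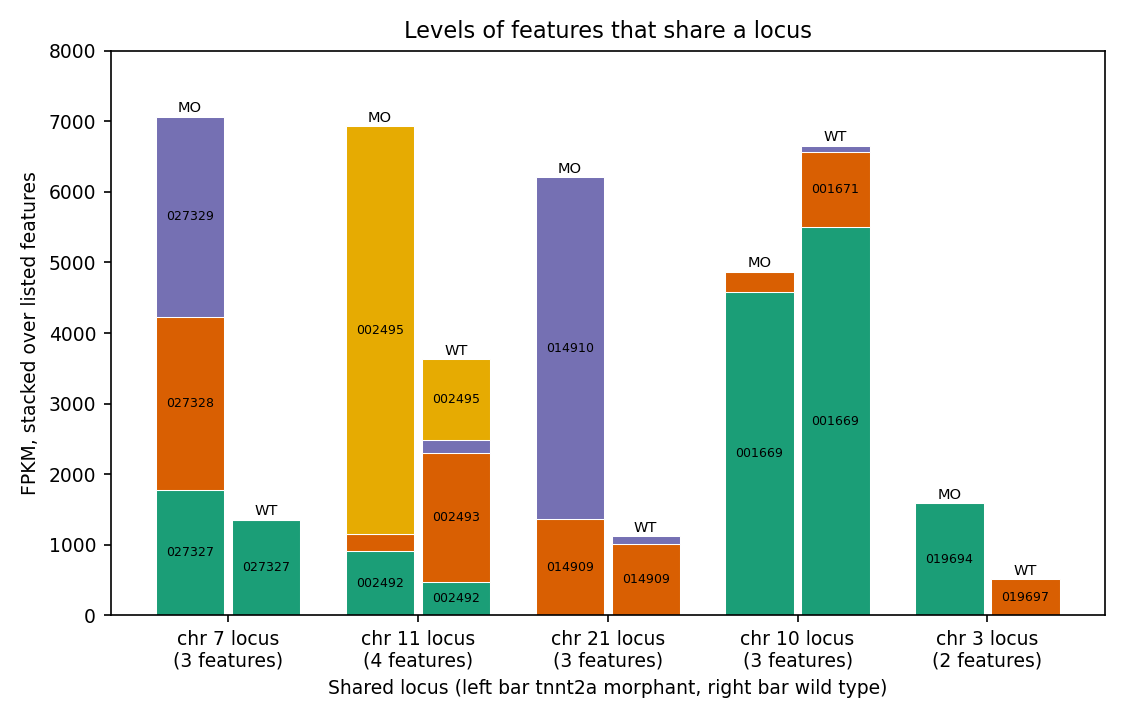
FPKM (vertical axis) stacked over the listed features of 5 shared loci, with the tnnt2a morphant bar (MO) left of the wild-type bar (WT) and each colour 1 feature of that locus, numbered as in its XLOC identifier. On the chromosome 11 locus XLOC_002495 fills most of the morphant bar of 6930 FPKM, and XLOC_002493 is the largest part of the wild-type bar of 3633 FPKM.

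Most members differed little between the groups. The median log2 fold change of the 125 members above 0 in both groups was 0.18 (quartiles -0.16 and 0.29), or 1.14-fold, and 99 of them (79.2%) lay within 0.5 of 0 on the log2 scale. Among the 817 listed features above 0 in both groups with 100 to 1000 FPKM in the higher group the median was 0.08 (quartiles -0.25 and 0.31) and 73.2% lay within 0.5 of 0. For all 14078 listed features of at least 1 FPKM the median was 0.12 (quartiles -0.38 and 0.53) and 54.1% lay within that range. Tested features with p-values above 0.767 are missing from each of these sets. How many of those lay within that range is unknown, so the gap between the sets could differ over all tested features. In level, 88 members (70.4%) were higher and 37 lower in morphant hearts. The share higher was 52.1% among the features of 100 to 1000 FPKM and 53.4% among all features of at least 1 FPKM. Relative to the shift of 0.12 seen over the listed features, 75 members were higher and 50 lower and the members' median was 0.06. The members' excess of positive differences was smaller once that shift was taken off. That shift is known over listed features only. With 3586 tested features of p-values above 0.767 unlisted, it could differ over all tested features, and so could these counts.

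**Figure D4:**
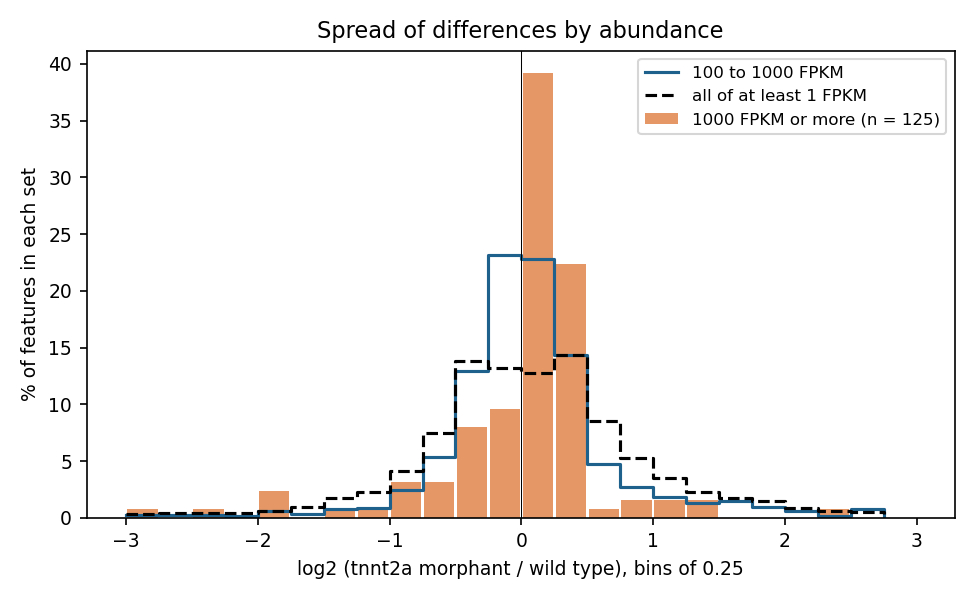
Percentage of features (vertical axis) in bins of 0.25 of the log2 ratio of tnnt2a morphant over wild type (horizontal axis), for the 125 members above 0 in both groups (bars), features of 100 to 1000 FPKM (solid line) and all features of at least 1 FPKM (dashed line). Bars are highest between 0 and 0.5, and 3 members beyond 3 lie outside the range shown.

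The number of members with a higher morphant level varied between bands of abundance. Of the 13 members at 5000 FPKM or more in the higher group, 5 were higher and 8 lower in morphant hearts, with a median log2 fold change of -0.19. Between 2500 and 5000 FPKM 14 of 18 were higher, with a median of 0.24. From 1500 to 2500 FPKM 42 of 50 were higher, with a median of 0.21. From 1000 to 1500 FPKM 27 were higher and 17 lower, with a median of 0.14. Relative to the shift of 0.12 over the listed features, 4 were higher and 9 lower at 5000 FPKM or more. In the bands below, taken downwards, 12 were higher and 6 lower, then 36 and 14, then 23 and 21. These counts are over members above 0 in both groups, and whether the bands differ was not tested.

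**Figure D5:**
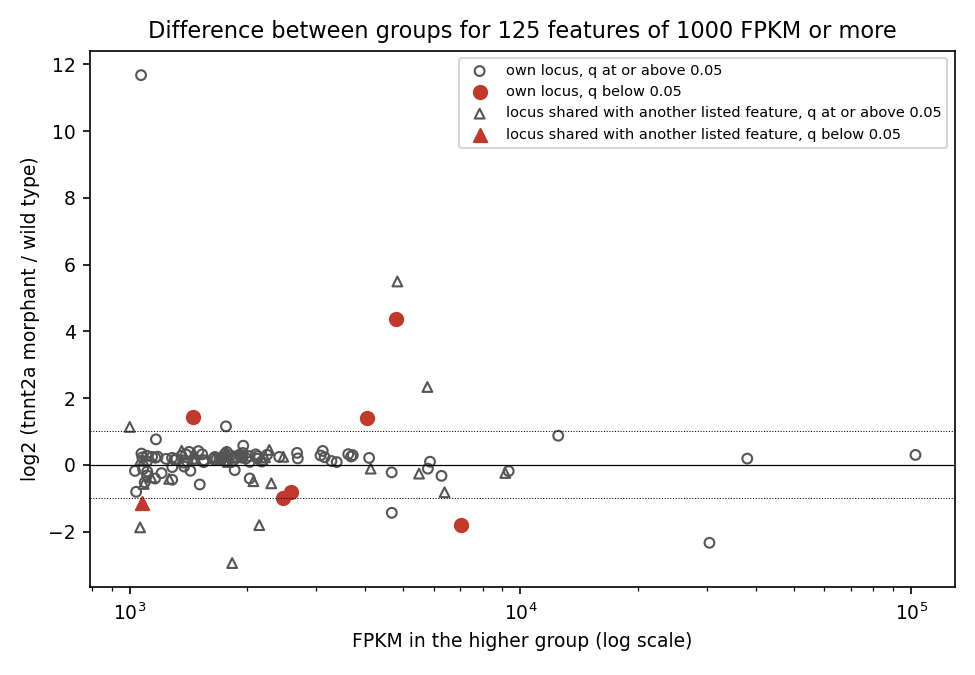
Log2 ratio of tnnt2a morphant over wild type (vertical axis) against FPKM in the higher group (horizontal axis, log scale) for the 125 members above 0 in both groups, with filled symbols for q below 0.05 and triangles for loci shared with another listed feature. Dotted lines mark 2-fold differences, 15 points lie on or beyond them, and 99 points lie within 0.5 of the zero line.

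Ranks among the listed features were largely kept. The 3586 tested features with p-values above 0.767 are unlisted, so ranks and overlaps that include them are unknown. Of the members, 96 were at 1000 FPKM or more in both groups, 17 in morphant hearts alone and 16 in wild-type hearts alone. The median member moved 9 places between the groups among all listed features, 71 moved fewer than 10 places, 37 moved 10 to 49 and 21 moved 50 or more. Of these 21, 11 stood higher in rank in morphant hearts and 10 stood lower. The 100 highest features of each group had 90 in common, 90% of each list, and these moved a median of 4 places. The 50 highest had 39 in common, 78% of each list.

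Gains and losses were summed over the members. The 91 members with a higher value in morphant hearts added 78373 FPKM, and the 38 with a lower value differed by -55307 FPKM in sum, leaving 23067 FPKM more in morphant hearts. The single largest gain was XLOC_019566, 18910 FPKM higher in morphants, and the largest loss was XLOC_020523, with a difference of -24441 FPKM. Without these features the remaining 127 members summed to 305098 FPKM in morphant and 276499 FPKM in wild-type hearts. The share of the listed sum held by members with higher values was 42.7% in morphant and 33.9% in wild-type hearts, and that held by members with lower values was 9.90% in morphant and 17.5% in wild-type hearts, an ordering that their choice by direction fixes.

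Abundant features lay on narrower loci than the listed features as a whole. The median locus width of the members was 5642 bp, against 10879 bp for features of 100 to 1000 FPKM and 21277 bp for all listed features. Width here is that of the coordinates in the table, introns and overlapping features included, and not that of a transcript. Loci under 500 bp made up 8 members (6.20%), against 10.6% of features of 100 to 1000 FPKM and 1.14% of all listed features. A share above that of all listed features was thus not particular to the members. In 3 of these 8 the morphant level was higher (XLOC_019566, XLOC_004838 and XLOC_012098) and in 5 it was lower, including XLOC_000171 and the pair XLOC_000734 and XLOC_000735. The other members of this width were XLOC_002550 on chromosome 11 (12203684 to 12203981), with 873 FPKM in morphant and 1162 FPKM in wild-type hearts, and XLOC_013320 on chromosome 20 (23333589 to 23333704), with 593 FPKM in morphant and 1040 FPKM in wild-type hearts (q = 0.291 and q = 0.736 in the authors' deposited table). They were named after their values were seen. Loci from 500 to 3000 bp, from 3000 to 10000 bp and of 10000 bp or more had median log2 fold changes of 0.18, 0.20 and 0.20 over their 19, 66 and 33 members above 0 in both groups.

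Members were found on 24 of the 25 numbered chromosomes. Chromosomes 1, 3, 11, 16 and 23 held 9 each, and chromosome 12, with 580 listed features, held none. Within 100 kb of each other lay 5 pairs of member loci, and their directions were mixed. On chromosome 2, XLOC_012595 (24600868 to 24614260) had 1954 FPKM in morphant and 1316 FPKM in wild-type hearts (q = 0.381 in the authors' deposited table). It ends 4412 bp before XLOC_012597, the called fall with 1249 FPKM in morphant and 2468 FPKM in wild-type hearts, so these neighbours had opposite differences. On chromosome 8, XLOC_028617 (48620751 to 48621775) had 3627 FPKM in morphant and 2909 FPKM in wild-type hearts, and XLOC_028618, 2495 bp further on (48624270 to 48628895), had 3285 FPKM in morphant and 3041 FPKM in wild-type hearts (q = 0.519 and q = 0.888 in the authors' deposited table). These pairs, too, were chosen for mention after their values were seen.

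At the threshold the members closest to it from above were XLOC_007599 at 1001 FPKM in morphant hearts, XLOC_008009 on chromosome 16 (12614026 to 12621697) at 1032 FPKM in wild-type hearts and XLOC_000735 at 1038 FPKM in wild-type hearts, taking the higher value of each. Just below it lay XLOC_014144 on chromosome 20 (41962166 to 42066811), with 897 FPKM in morphant and 999.8 FPKM in wild-type hearts, and XLOC_020641, with 411 FPKM in morphant and 993 FPKM in wild-type hearts. XLOC_027882 on chromosome 7 (47979861 to 47990857) followed, with 980 FPKM in morphant and 782 FPKM in wild-type hearts.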

How the data were processed

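The submitters' processing notes name the GRCz10 build, Cuffdiff, Cufflinks 2.2.1, STAR 2.5.0c, FastQC 0.11.4, cutadapt 1.9.1, Trim Galore 0.4.1 and bcl2fastq. The step each served, the gene annotation and any scaling of libraries were not given in the sources used here. Each row of the authors' deposited table, per the file headers, holds 1 FPKM value per group beside the p-value and the q-value of each feature. The 3 replicates of a group were taken as merged into that value. Coordinates are printed as that table gives them. The depth of the 6 libraries is unknown, so no counting interval or floor was computed.

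The q-values match an adjustment over 19969 features, so 3586 tested features with p-values above 0.767 are unlisted and not analysed here, and abundant features may be among them. Members, lists and thresholds were chosen with earlier results of these data known. Log2 ratios of morphant over wild type were recomputed where both values were above 0. Ranks and sums are over listed features. The test is the authors' Cuffdiff q-value below 0.05, and no test across libraries was possible. The rule for named features took the 10 highest of each group, those called, those at least 2-fold different, those listed at 0 and the 3 on either side of the threshold, 34 in all, together with features listed at the same coordinates as one of these. XLOC_002550, XLOC_013320, XLOC_012595, XLOC_028617 and XLOC_028618 fall outside it and were named after their values were seen. The gene and cell type lists that needed symbols were not used, since the gene table at hand is of the GRCz12tu build and matches no identifier. The alternatives were other q-value limits, other FPKM thresholds, leaving out shared or short loci or values of 0, a pseudocount of 1 and rescaled folds. The scripts were tested on simulated data and used Python 3.11.15, numpy 2.4.6 and pandas 2.3.3.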

Additional observations from a re-analysis of the deposited data

How the results depend on the processing

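Of 45 values recomputed under other settings, 37 stayed within 1.5 times the reported value (for the median log2 fold change, within 0.5 of the members' interquartile range). Some of the 37 had little or no room to move. No member listed at 0 was called, so leaving those members out could not change the calls. A pseudocount of 1 is small beside levels of 1000 FPKM. The 3 called rises and 4 called falls became 9 and 11 at an unadjusted p-value below 0.05, and 6 and 11 with a threshold of 500 FPKM, settings that by construction admit more calls or features. A q-value below 0.01 left 2 falls beside 3 rises, and requiring 1000 FPKM in both groups left 1 rise beside 3 falls. Without shared coordinates, members at least 2-fold different or listed at 0 were 5 higher and 4 lower, against 11 and 8. The median log2 fold change of 0.18 was 0.06 after recentring and 0.14 with values as shares of the listed sum, both added after the data were seen. Without loci under 500 bp the members held 43.7% of the morphant and 43.5% of the wild-type sum, and without the 3 highest features of each group 40.5% and 39.0%.

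No paired analysis was possible because each group has 1 merged value per feature. Leaving out single replicates and rescaling the libraries were not run for that reason either. No FPKM value carries a replicate error or a detection limit.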
